A study of Homo sapiens with 16 samples.

Results

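The 10 genes described here belong to the interleukin 1 (IL1) family and to the inflammasome, the protein complex that processes some of its cytokines. They are the ligands IL1A, IL1B, IL18 and IL33, the receptor antagonist IL1RN, the receptor chains IL1R1 and IL1RAP, the protease CASP1, the sensor NLRP1 and the pore-forming protein GSDMD. The rule that chose them names gene symbols and uses no measured value, although it was written with earlier results of these data known. All 10 were found among the 39007 gene rows of the expression table.

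The study followed how bladder cancer cells acquire resistance to gemcitabine, a nucleoside analogue used in chemotherapy. T24, an established human bladder cancer cell line, was exposed to 1.5 µM gemcitabine for 72 h in each round, and the surviving cells formed the resistant line GRC1. RNA was sequenced from the parental cells (P0) and from GRC1 cells of the early (P3), intermediate (P7) and late (P15) phases, with 4 libraries per phase and 16 in all. Every library came from the T24 background grown in DMEM with serum, and P3, P7 and P15 were successive stages of 1 selected line. All library titles carry the letters NT, and the study's methods do not state whether gemcitabine was present when RNA was taken. Some titles of different phases end in the same S number, and its meaning is not given. Whether the phases were sequenced together is not stated, so phase and sequencing batch cannot be told apart here. The descriptions do not say whether the 4 libraries of a phase came from separate cultures, so p-values measure the spread between these libraries only and cannot speak for other lines selected in the same way.

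IL1A and IL1B are cytokines that both bind the receptor IL1R1, which then recruits IL1RAP as its signalling partner. IL1B and IL18 are made as inactive precursors, and the protease CASP1, once activated in an inflammasome such as the one formed by NLRP1, cleaves them into their active forms and also cleaves GSDMD, whose fragment opens pores in the plasma membrane. Epithelial cells are known to hold IL1A, IL18 and IL33 as preformed alarm signals, and IL1RN blocks the receptor without activating it. The values here are RNA levels, which say nothing of cleavage or secretion.

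The libraries held 33800000 to 50000000 counts each, so that 1 count was worth 0.02 to 0.0296 CPM (CPM is the count of a gene scaled to the total of its library). Of 12 urothelial and epithelial markers, 5 averaged above 1 CPM over the libraries. Their summed level ran from 2030 to 2110 CPM in P0, from 2320 to 2460 in P3, from 1680 to 1830 in P7 and from 677 to 755 in P15. The epithelial adhesion gene CDH1 stayed at or below a phase mean of 0.0484 CPM throughout, and of the uroplakins, which define mature urothelium, none exceeded a phase mean of 1.98 CPM. Of 10 leukocyte and macrophage markers, 9 were below 1 CPM in every library. The defining leukocyte gene PTPRC had a mean of 0 CPM in P0, P3 and P7 and of 0.0143 CPM in P15. The exception was CD14, with phase means of 6.81, 1.95, 5.83 and 0.0577 CPM from P0 to P15. The 8 fibroblast markers summed to 7.26 to 8.45 CPM in P0, 1.78 to 6.47 in P3, 5.57 to 6.54 in P7 and 46.6 to 51.7 in P15, most of it from the collagen genes COL1A1 and COL3A1, while DCN, a defining fibroblast gene, had a mean of 0 CPM in P0 and P15. In these bulk samples, fewer cells that express a gene and less RNA per cell cannot be told apart.

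IL1A and IL1B lie next to each other on chromosome 2, both on the minus strand. IL1A occupies bases 112773925 to 112784493 and IL1B bases 112829751 to 112836816 of GRCh38, 45.3 kb apart, and IL1RN (bases 113099315 to 113134016, plus strand) lies 262 kb beyond IL1B. IL1R1 is on the same chromosome at bases 102064544 to 102179874 on the plus strand, and IL1RAP is on chromosome 3 at bases 190514051 to 190659750 on the plus strand. The stretches just upstream of the IL1A, IL1B and IL1RAP genes are shown because these genes moved in opposite directions at P15 and their upstream sequences differ in composition. They are RefSeq promoter windows of GRCh38.p14, cut where the annotated gene begins and read 5′ to 3′ on the strand of the gene, with each CG dinucleotide, the site of most DNA methylation, in capitals.
IL1A, chr2:112784494-112784743, minus strand: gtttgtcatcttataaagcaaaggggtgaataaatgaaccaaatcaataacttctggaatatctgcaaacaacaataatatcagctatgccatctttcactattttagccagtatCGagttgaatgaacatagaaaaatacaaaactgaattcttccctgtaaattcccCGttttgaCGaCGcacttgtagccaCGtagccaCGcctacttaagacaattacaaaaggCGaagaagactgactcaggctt
IL1B, chr2:112836817-112837029, minus strand: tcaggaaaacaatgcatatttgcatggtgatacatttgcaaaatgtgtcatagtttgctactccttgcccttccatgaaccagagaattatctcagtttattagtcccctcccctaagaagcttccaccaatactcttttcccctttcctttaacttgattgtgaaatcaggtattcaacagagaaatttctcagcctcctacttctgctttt
IL1RAP, chr3:190513835-190514050, plus strand: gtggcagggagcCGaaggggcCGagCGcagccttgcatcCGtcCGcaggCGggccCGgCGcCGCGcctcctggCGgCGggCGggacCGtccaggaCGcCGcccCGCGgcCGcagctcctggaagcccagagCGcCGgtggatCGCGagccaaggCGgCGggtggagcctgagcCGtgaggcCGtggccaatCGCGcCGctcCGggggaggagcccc
The 250 bases upstream of IL1A held 7 CG dinucleotides, the 213 bases upstream of IL1B held 0, and the 216 bases upstream of IL1RAP held 31. In the full windows of 250 bases the numbers were 7, 1 and 33, and 8 in a second annotated window of IL1A, against a median of 11 over 34788 windows. As few as 7 were found in 43.8% of all windows, as few as 1 in 14.7%, and as many as 33 in 8.16%. IL1R1 has 4 annotated windows, with 6, 3, 6 and 31 CG dinucleotides, and the counts do not show which start site was used in these cells. Methylation was not measured, and the counts are a description of the reference sequence.

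Levels are given as log2(CPM + 1), and 8 of the 10 genes averaged above 1 CPM over the libraries and were tested, together with 13241 other genes. IL33 and IL1RN did not reach that level. A gene is called higher or lower here when limma gave a Benjamini-Hochberg adjusted p below 0.05 and the levels differed at least 2-fold. The late phase was compared with the parental phase and each phase with the one before it, and comparisons that use the same libraries are not independent of each other.

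Between P0 and P15, 3 of the 8 tested genes fell (IL1A, IL1B and CASP1) and 2 rose (IL1R1 and IL1RAP). Over all tested genes, 11.5% were called lower and 12.2% higher in this comparison. IL18, NLRP1 and GSDMD differed by less than 2-fold. The members' median log2 fold change was -0.12, beside 0.04 over all genes tested. The genes that fell encode 2 ligands and the protease, and both genes that rose encode receptor chains. The summed epithelial markers and CD14 were also lower in P15 and the summed fibroblast markers higher, as given above. Of the 5 epithelial markers that averaged above 1 CPM, only KRT18 was higher in P15, at 471 CPM in P0 and 633 in P15. KRT7 (957 and 11.5), KRT8 (593 and 70.3), GATA3 (36.2 and 1.43) and EPCAM (5.41 and 0.811) were lower. The part of these markers in the differences was not tested.

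**Figure D1:**
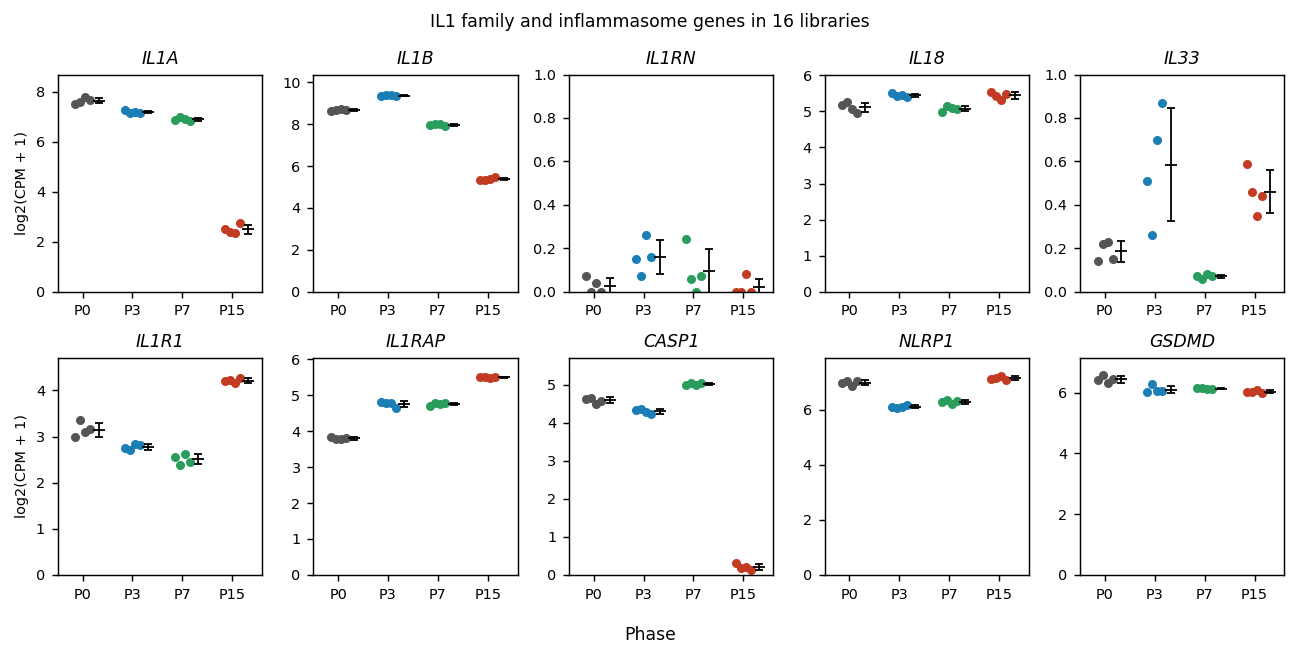
Level of the 10 genes, as log2(CPM + 1), in each of the 16 libraries, with 1 panel per gene and the phase on the horizontal axis. Coloured points are libraries and the black dash with its bar is the mean ± SD of 4 libraries, with bars cut off at 0. The P15 points of IL1A, IL1B and CASP1 lie below, and those of IL1R1 and IL1RAP above, all the other points of the gene. The IL1RN and IL33 panels are drawn on a scale of 0 to 1.

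IL1A, the cytokine that is active without cleavage by CASP1, had the largest fall of the 8 genes on the log2(CPM + 1) scale, while the CPM ratio was larger for CASP1, described below. Its level was 7.52, 7.59, 7.77 and 7.65 in the 4 P0 libraries, 7.25, 7.16, 7.19 and 7.16 in P3, 6.86, 6.99, 6.90 and 6.81 in P7, and 2.52, 2.37, 2.36 and 2.74 in P15. Each phase lay below the one before it with no overlap between libraries, by small steps at first and by 1 large step at the end. The mean went from 198 CPM ± 14.8 (SD, n = 4) in P0 to 4.68 CPM ± 0.722 in P15, a 42.3-fold difference. On the log2 scale P15 was lower than P0 by a change of -5.14 (SE 0.06, limma adjusted p = 1.6e-27), of which -4.39 came between P7 and P15 (SE 0.06, limma adjusted p = 3.4e-26). The steps from P0 to P3 (-0.44, limma adjusted p = 1.7e-06) and from P3 to P7 (-0.30, limma adjusted p = 0.00033) passed the test on p and stayed under 2-fold.

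IL1B, the cytokine that CASP1 activates, went up before it went down. Its level was 8.63, 8.66, 8.73 and 8.69 in P0, 9.34, 9.39, 9.40 and 9.34 in P3, 7.98, 7.99, 8.0 and 7.92 in P7, and 5.32, 5.34, 5.40 and 5.46 in P15. P3 was the highest phase and P15 the lowest, and no library of 1 phase overlapped another phase. Mean levels were 409 CPM ± 12.1 in P0, 660 ± 14.7 in P3, 250.2 ± 6.19 in P7, then 40.7 ± 1.84 in P15 (SD, n = 4 each). The higher level in P3 (log2 fold change 0.69, SE 0.03, limma adjusted p = 6.5e-15) was under 2-fold. IL1B then fell from P3 to P7 by a log2 fold change of -1.40 (SE 0.03, limma adjusted p = 2.6e-20) and from P7 to P15 by a further -2.59 (SE 0.03, limma adjusted p = 2.5e-27). P15 ended 10.0-fold below P0, at a log2 fold change of -3.30 (SE 0.03, limma adjusted p = 1.8e-29).

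The 2 neighbouring cytokine genes therefore did not keep a fixed proportion. The ratio of IL1B to IL1A counts, which is not corrected for gene length, was 2.07 in P0 (1.95 to 2.17 over the 4 libraries), 4.55 in P3 (4.28 to 4.72), 2.13 in P7 (2.01 to 2.18), then 8.81 in P15 (7.57 to 9.97). P0 and P7 overlapped, while P3 lay above both and P15 above P3. Per kilobase of exon, IL1B and IL1A were the 2 highest of the 10 genes in P0 (136 and 98.1 CPM per kb), P3 (219 and 71.9) and P7 (83.2 and 58.4). In P15 the order changed, with IL18 first at 16.4 CPM per kb (15.1 to 17.6) and IL1B second at 13.5 (12.9 to 14.3). GSDMD came next at 12.6 (12.1 to 13.1), overlapping IL1B, and IL1A was seventh at 2.32 (2.05 to 2.82). Lengths were those of all annotated exons merged, so the order depends on the annotation.

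IL18, the other ligand that CASP1 activates, stayed close to its parental level. Its 4 values were 5.17, 5.26, 5.06 and 4.97 in P0, 5.51, 5.43, 5.46 and 5.41 in P3, 4.98, 5.16, 5.10 and 5.07 in P7, and 5.55, 5.43, 5.33 and 5.49 in P15. The phases formed 2 pairs, P3 with P15 and P0 with P7, that overlapped within a pair and not between pairs. P15 was above P0 by a log2 fold change of 0.34 (SE 0.06, limma adjusted p = 8.9e-06), a CPM ratio of 1.27. P15 and P3 differed by 0.00 (SE 0.06, limma adjusted p = 0.97) and P7 and P0 by -0.04 (SE 0.06, limma adjusted p = 0.59).

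IL33, a nuclear cytokine released by damaged epithelium, and IL1RN, the antagonist of the IL1 receptor, were near the limit of counting. The IL33 rows correspond to 4 to 6 counts per library in P0, 8 to 28 in P3, 2 in each P7 library and 10 to 20 in P15. In a fit with no filter on low values, IL33 differed between P3 and P0 (log2 fold change 0.40, limma adjusted p = 0.0024) and between P7 and P3 (-0.52, limma adjusted p = 0.00039). It also differed between P15 and P7 (0.39, limma adjusted p = 0.0017) and between P15 and P0 (0.28, limma adjusted p = 0.019). None of these reached 2-fold on this scale, where the added 1 CPM exceeds the level itself. The P3 mean was 3.78 times the P0 mean and 10.4 times the P7 mean in CPM. IL1RN had 0 to 2 counts in P0, 2 to 8 in P3, 0 to 7 in P7 and 0 to 2 in P15. A count of 0 allows a level of up to 0.06 to 0.0888 CPM, the value of 3 counts. This bound covers counting error only and takes each count as independent, so it may be too low. IL1RN in P15 could not be told from P0 at this depth (log2 fold change -0.01, SE 0.04, limma adjusted p = 0.98). The ligands IL1A and IL1B were thus measured with almost no RNA of their antagonist in any phase.

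IL1R1, the chain that binds both IL1 cytokines, was lowest in P7 and highest in P15. Its level was 2.99, 3.35, 3.09 and 3.16 in P0, 2.76, 2.70, 2.84 and 2.82 in P3, 2.56, 2.38, 2.62 and 2.45 in P7, and 4.20, 4.23, 4.15 and 4.26 in P15. No 2 phases overlapped. Mean levels were 7.90 CPM ± 0.956 in P0, 4.68 ± 0.423 in P7 and 17.5 ± 0.599 in P15 (SD, n = 4 each). IL1R1 rose from P7 to P15 by a log2 fold change of 1.71 (SE 0.08, limma adjusted p = 2.2e-16) and from P0 to P15 by 1.06 (SE 0.08, limma adjusted p = 3.3e-12). The latter lies just above the 2-fold threshold and fell below it, at 0.81, with a pseudocount of 5 and, at 0.99, after quantile normalization.

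IL1RAP, the partner chain without which IL1R1 does not signal, rose in 2 steps. Its level was 3.84, 3.77, 3.77 and 3.82 in P0, 4.80, 4.79, 4.78 and 4.64 in P3, 4.71, 4.78, 4.75 and 4.77 in P7, and 5.49, 5.49, 5.48 and 5.50 in P15. P3 and P7 overlapped, and both lay above P0 and below P15. The step from P0 to P3 was 0.95 (SE 0.05, limma adjusted p = 6.6e-15) and that from P7 to P15 was 0.74 (SE 0.05, limma adjusted p = 1.5e-13), each short of 2-fold on this scale. Without the added 1 the P3 mean was 2.01 times the P0 mean, so the first step lies at the threshold. Together they made a log2 fold change of 1.69 (SE 0.05, limma adjusted p = 8.9e-21), from 12.9 CPM ± 0.344 to 43.9 ± 0.254 (SD, n = 4 each). The ratio of IL1RAP to IL1R1 counts was 1.66 in P0, 4.44 in P3, 5.59 in P7, then 2.51 in P15, without overlap between phases. Both receptor chains were therefore highest in the phase in which both of their ligands were lowest.

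**Figure D2:**
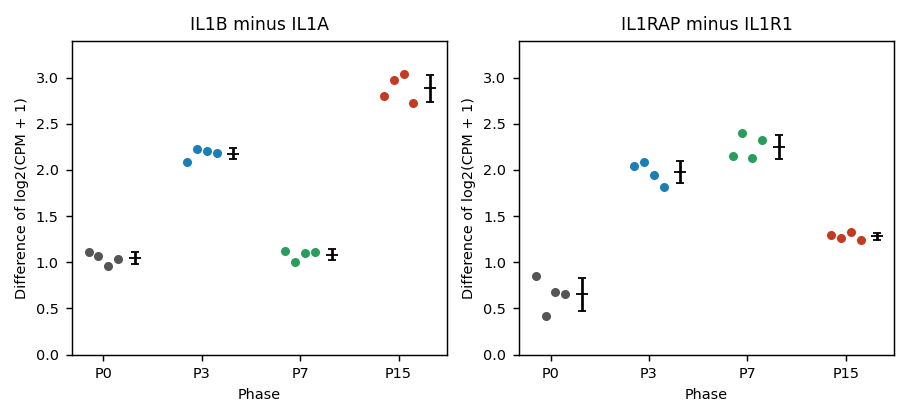
Difference of log2(CPM + 1) between IL1B and IL1A (left) and between IL1RAP and IL1R1 (right) in each library, by phase. Points are libraries and the black dash with its bar is the mean ± SD of 4 libraries. The IL1B minus IL1A difference is alike in P0 and P7, higher in P3 and highest in P15, and the IL1RAP minus IL1R1 difference is highest in P7.

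CASP1, the inflammasome protease, was almost absent from P15. Its level was 4.64, 4.67, 4.49 and 4.58 in P0, 4.33, 4.38, 4.28 and 4.24 in P3, 5.01, 5.04, 5.00 and 5.04 in P7, and 0.32, 0.19, 0.22 and 0.12 in P15. P7 was the highest phase, and the P15 libraries lay far below all 12 others. The P15 values stand for 10, 6, 6 and 4 counts, 26 in all, or 0.159 CPM. An exact Poisson 95% interval of 0.104 to 0.233 covers counting error only and takes each count as independent. Genes with 2 counts were 2.92 to 3.25 times as frequent as genes with 1, so the interval may be too narrow. In P0 the CASP1 mean was 23.2 CPM ± 1.31 and in P7 31.5 ± 0.464 (SD, n = 4 each), 145 and 197 times the P15 mean. The log2 fold changes were -4.38 from P0 to P15 (SE 0.06, limma adjusted p = 2.1e-26) and -4.81 from P7 to P15 (SE 0.06, limma adjusted p = 3.2e-27). They understate a fall to so few counts, since 1 was added to each CPM value. The difference between P3 and P7 (0.71, SE 0.06, limma adjusted p = 9.5e-10) was in the other direction and under 2-fold.

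CASP1 is on chromosome 11, bases 105025397 to 105035250, minus strand, within a cluster of inflammatory caspases. CARD16, which encodes a decoy nearly identical to the CASP1 recruitment domain, fell with it, from a mean level of 2.08 in P0 and 3.24 in P7 to 0.06 in P15 (P15 against P0 -2.02 on the log2 scale, SE 0.09, limma adjusted p = 6e-16). Reads of these 2 genes could have been divided between them, so their levels are not independent. CASP4, the caspase of the same cluster that senses intracellular lipopolysaccharide, went from 6.67 in P0 to 5.87 in P15, a difference of -0.81 (SE 0.04, limma adjusted p = 7.5e-15) that was under 2-fold. CASP5 and CASP12, the other caspases there, averaged 0.0129 and 0 CPM over the libraries.

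NLRP1, a sensor that nucleates an inflammasome and is known for its role in epithelial cells, was lower in the middle phases and back above its parental level at the end. Its level was 6.99, 7.03, 6.87 and 7.05 in P0, 6.09, 6.07, 6.11 and 6.19 in P3, 6.30, 6.37, 6.20 and 6.31 in P7, and 7.12, 7.16, 7.24 and 7.09 in P15. No phases overlapped, and P15 was above P0 by only 0.17 (SE 0.04, limma adjusted p = 0.0011). The difference between P3 and P0 was -0.87 (SE 0.04, limma adjusted p = 1.5e-14) and that between P15 and P7 0.86 (SE 0.04, limma adjusted p = 3e-15), both under 2-fold. P15 against P3 reached 1.04 (SE 0.04, limma adjusted p = 6e-17). NLRP1 (chromosome 17, bases 5499415 to 5619424, minus strand) shares 7.44% of its exon bases with another annotated gene of the same strand.

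GSDMD, the pore-forming protein that CASP1 cleaves, stayed within 2-fold in every comparison. Its level was 6.41, 6.58, 6.31 and 6.46 in P0, 6.02, 6.29, 6.04 and 6.05 in P3, 6.14, 6.16, 6.11 and 6.11 in P7, and 6.03, 6.03, 6.08 and 5.97 in P15. P0 was above the other phases. P3 overlapped both P7 and P15, while P7 lay above P15. P15 lay below P0 by a log2 fold change of -0.41 (SE 0.05, limma adjusted p = 1.4e-07). P7 differed from P3 by 0.03 (SE 0.05, limma adjusted p = 0.65) and P15 from P7 by -0.10 (SE 0.05, limma adjusted p = 0.077). In P15 the protein's RNA was thus at 64.3 CPM ± 2.03 (SD, n = 4) beside CASP1 at 0.160.

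Taking the phases in order, the changes that were called lay mostly in the last step. IL1RAP, NLRP1 and GSDMD were called in no step and changed at least as much from P0 to P3 as from P7 to P15. IL18 changed by a like amount in each step (0.34, -0.375 and 0.37). From P0 to P3, 0 of the 8 tested genes were called, beside 1.95% of all genes called higher and 2.51% called lower. All 8 passed on adjusted p alone, 3 of them higher in P3 and 5 lower, as did 68.7% of all genes tested. The members' median log2 fold change was -0.31, beside -0.025 over all genes. From P3 to P7, 1 gene was called lower, IL1B, and 0 higher, beside 0.845% and 0.996% of all genes. From P7 to P15, 3 genes were called lower (IL1A, IL1B and CASP1) and 1 higher (IL1R1), beside 12.1% and 13.4% of all genes. The shares of members and of all genes called are thus both largest in that step, and 8 genes are too few to set one share against the other.

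**Figure D3:**
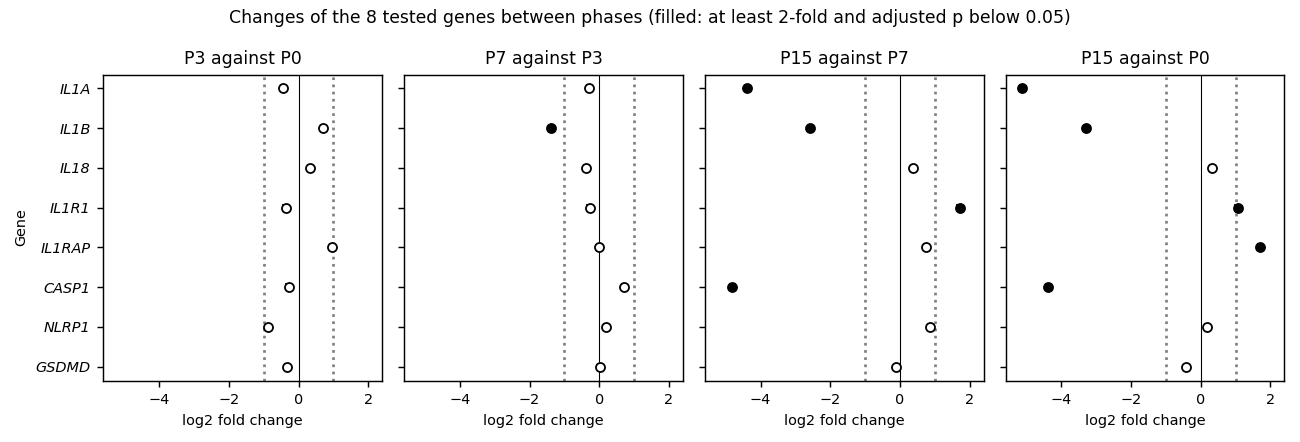
Log2 fold change ± SE of the 8 tested genes in the 4 comparisons, with 1 panel per comparison. Filled points were called, open points were not, dotted lines mark a 2-fold difference, and most SE bars are narrower than the points. The P15 panels hold IL1A, IL1B and CASP1 far to the left and IL1R1 to the right, while the P3 against P0 panel holds no filled point.

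The genes around the cytokine pair were looked at after the values of IL1A and IL1B had been seen. Of 10 other tested genes within 500 kb of the IL1B start, 2 were called lower in P15 than in P0 and 2 higher. Of all genes tested, 11.5% were called lower and 12.2% higher in that comparison. The 2 lower neighbours were IL1A, whose fall is given above, and PAX8, a transcription factor gene 442 kb away (-1.11, SE 0.05, limma adjusted p = 5.6e-17). The 2 higher ones were SLC20A1, a phosphate transporter gene 191 kb away on the side of IL1A (1.52, SE 0.04, limma adjusted p = 4.2e-21), and PAX8-AS1 (1.39, SE 0.08, limma adjusted p = 3.6e-14). CKAP2L, the tested gene nearest to IL1A, differed by 0.09 (SE 0.04, limma adjusted p = 0.05) and was not called. IL37, IL36A, IL36B, IL36G, IL36RN and IL1F10, the IL1 family genes between IL1B and IL1RN, were too low to be tested, with means over the libraries from 0 to 0.17 CPM.

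**Figure D4:**
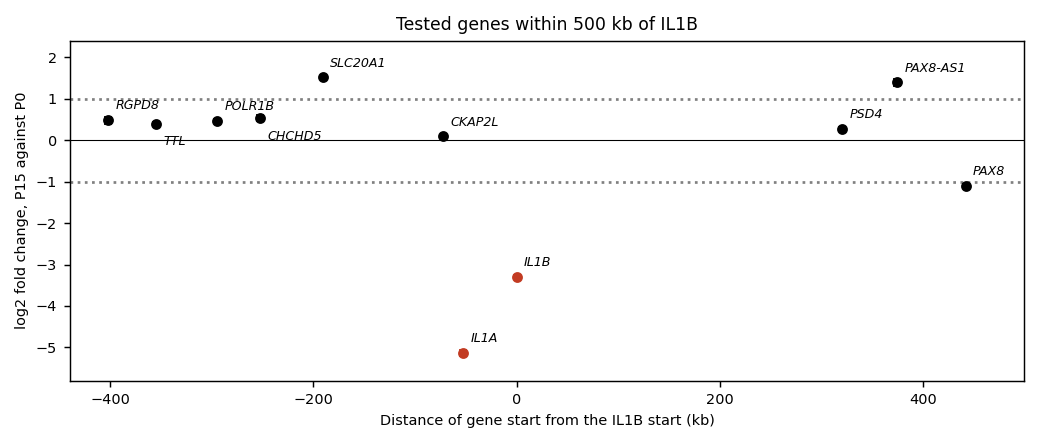
Log2 fold change ± SE of P15 against P0 for the tested genes within 500 kb of IL1B, against the distance of each gene start from the IL1B start in kb. IL1A and IL1B are in red, the other genes in black, dotted lines mark a 2-fold difference, and SE bars are narrower than the points. IL1A and IL1B lie at -5.14 and -3.30, and the other genes between -1.11 and 1.52.

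The rest of the IL1 family was represented by few genes. Of 15 further ligands, receptors and binding proteins, 14 were in the table and 4 were tested, and the 10 others were below 1 CPM in every library. IL18R1, the ligand-binding chain of the IL18 receptor, rose from a mean level of 1.97 in P0 to 3.67 in P15 (1.70, SE 0.09, limma adjusted p = 3.6e-15). The decoy receptor IL1R2 (-0.35), the IL18-binding protein IL18BP (-0.16) and the inhibitory receptor SIGIRR (-0.34) were not called between P0 and P15. The median of the 4 was -0.25, beside 0.04 over all genes.

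Of 23 other inflammasome and pyroptosis genes, 22 were in the table and 13 tested. Between P0 and P15, 4 fell and 1 rose, with a median of -0.80, where 11.5% of all genes were called lower and 12.2% higher, with a median of 0.04. TXNIP, an inhibitor of thioredoxin that is known to bind NLRP3, was at 16 CPM in P0 and at 0 in all 4 P15 libraries, at least 192-fold lower when P15 is set to 3 counts per library. The list's median is the same with TXNIP at that bound. PYCARD, the adaptor that links sensors to CASP1, went from 14.7 CPM in P0 to 2 counts in all of P15, with 3 of the 4 libraries at 0 (limma adjusted p = 1.4e-23). CARD16, given above, and DFNA5, the older symbol of the gasdermin GSDME (-1.32, SE 0.04, limma adjusted p = 4.2e-20), also fell. GSDMB, another gasdermin, rose by 1.46 (SE 0.11, limma adjusted p = 8.6e-12). The gasdermin gene GSDMC averaged 0.955 CPM and was not tested, with a mean level of 0.19 in P0 and 1.43 in P15. NLRP3, the best-known inflammasome sensor, differed by -0.80 and was not called.

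The adaptor PYCARD and the protease CASP1 were thus both at a few counts in P15, beside the sensor NLRP1 and the substrates IL18 and GSDMD at levels within 1.34 times those of P0. IL1B, the other CASP1 substrate among the members, did fall, by a log2 fold change of -3.30. In P3 against P0, only TXNIP of the 13 genes was called, and it rose by 1.39 (SE 0.06, limma adjusted p = 4.1e-15). Of all genes tested, 1.95% were called higher and 2.51% lower in that comparison.

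The 16 genes that carry the signal from the IL1 receptor were all tested. Between P0 and P15, 5 fell and 0 rose, with a median of -0.44, beside the same 11.5% lower, 12.2% higher and median of 0.04 over all genes. IRAK3, an inhibitory member of the IRAK kinases, went from 23.8 CPM in P0 to 2 counts in all of P15 (limma adjusted p = 1.9e-26). MYD88, the adaptor that joins the receptor to the kinases, fell by 1.72 on the log2 scale (SE 0.05, limma adjusted p = 4.2e-20). PELI2, a ubiquitin ligase of the pathway, fell by 1.41 (SE 0.12, limma adjusted p = 6.9e-11). The other 2 were IKBKG (-1.37) and TOLLIP (-1.05), a subunit of the IκB kinase and an inhibitor of the pathway. The kinases IRAK1 (-0.64) and IRAK4 (0.23) and the ubiquitin ligase TRAF6 (-0.80) were not called. From P0 to P3 and from P3 to P7, 0 of the 16 genes were called in either direction. Of all genes tested, 1.95% were called higher and 2.51% lower from P0 to P3. From P3 to P7 the shares were 0.996% and 0.845%.

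Genes that are known from textbooks to be induced by IL1 were listed to set beside the cytokines, and 19 of 20 were tested. From P0 to P3, the step in which IL1B was higher, 9 rose and 0 fell, with a median log2 fold change of 0.68, beside -0.03 over all genes. Of all genes tested, 1.95% were called higher and 2.51% lower in that step. IL1A, which binds the same receptor, was lower in that step (-0.44). The gene that was not tested, the chemokine CCL2, had a mean level of 1.97 in P0, 0.30 in P3 and 0 in P7. The largest changes were those of the cytokine IL6 (2.21, SE 0.08, limma adjusted p = 1.6e-17), the protease MMP3 (2.10, SE 0.11, limma adjusted p = 2.3e-14) and the chemokine CXCL3 (2.09, SE 0.07, limma adjusted p = 8.6e-18). From P3 to P7, the step in which IL1B fell, 11 of the 19 fell and 0 rose, with a median of -1.13. Of all genes tested, 0.845% were called lower and 0.996% higher there, with a median of 0.0075. These 2 comparisons share the P3 libraries, so a high value in P3 enters both.

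From P7 to P15, 9 of the 19 genes rose and 0 fell, with a median of 0.43, while IL1A and IL1B both fell. Over all genes 13.4% were called higher and 12.1% lower in this step, with a median of 0.06. Against P0, 8 were higher and 1 lower in P15, with a median of 0.11. Of all genes tested, 12.2% were called higher and 11.5% lower in that comparison, with a median of 0.04. MMP3 rose by 6.68 (SE 0.11, limma adjusted p = 2.5e-25), the collagenase gene MMP1 by 4.59 (SE 0.10, limma adjusted p = 2.6e-22) and the chemokine CCL20 by 3.95 (SE 0.08, limma adjusted p = 5.2e-23). CSF2, which encodes GM-CSF, was the 1 gene that fell (-1.81, SE 0.06, limma adjusted p = 2.6e-19). IL6, the largest riser of the early phase, was within 0.11 of its P0 level in P15. Most genes of this list also answer to signals other than IL1, and no cytokine was added or blocked in these samples.

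**Figure D5:**
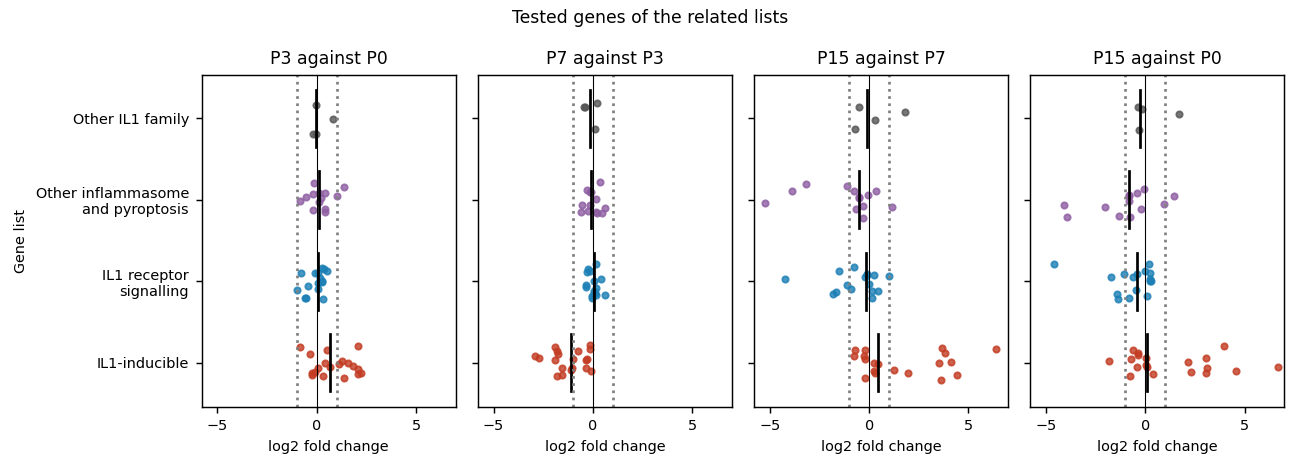
Log2 fold change of every tested gene of the 4 related lists, 1 row per list and 1 panel per comparison. Points are genes, spread vertically for legibility, black bars are list medians and dotted lines mark a 2-fold difference. The IL1-inducible genes lie mostly right of 0 in P3 against P0, left in P7 against P3 and right again in P15 against P7, and the fall of TXNIP, PYCARD, CARD16 and IRAK3 gives the far left points of the P15 panels.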

How the data were processed

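RNA of 16 libraries was sequenced on an Illumina platform. According to the submitters' processing notes, reads were aligned with STAR 2.6.1a to GRCh38, and the authors counted them per gene and deposited log2 values of CPM (counts scaled to library size) with 1 added, rounded to 2 decimals. The methods also describe quantile normalization, of which the deposited log2 values show no trace: library medians of the tested genes ran from 4.85 to 4.93. Strand setting and handling of reads that match several genes are not given in the sources used here. Low values fell on whole multiples of 1 count in 99.6 to 100% of cases, which gave the depth of 33800000 to 50000000 counts. Genes with 2 counts were 2.92 to 3.25 times as frequent as genes with 1, so the number of independent fragments may be smaller.

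Phases came from the labels. The deposited values were fitted with limma 3.58.1 (R 4.3.3), with 1 coefficient per phase and a variance trend, on the 13249 genes that averaged above 1 CPM, with two-sided Benjamini-Hochberg adjusted p-values and calls at adjusted p below 0.05 and a 2-fold difference. SEs are limma's moderated ones. The fit was tested on simulated data. Members and lists were chosen with earlier results of these data known. From each list, the text names up to 3 largest rises and falls called in P15 or P3 against P0, and it names the others after their values were seen. Positions came from GENCODE 44 (91.8% of tested symbols matched) and upstream sequences from RefSeq (6 of the 10 genes had windows). Alternatives were other filters, pseudocounts, scalings, replicate blocks, single phase pairs and leaving out each library.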

Additional observations from a re-analysis of the deposited data

Results flagged for a closer look

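Dixon's ratio, the gap of the farthest library divided by the range of its phase, singled out 3 of the 40 sets of 4 values, and chance gives about 2 in 40. IL1RN in P15 replicate 3 had a ratio of 1.0, being the only P15 library with any IL1RN count (2 counts). IL1RAP in P3 replicate 4 had a ratio of 0.875, at 4.64 against 4.78 to 4.80. GSDMD in P3 replicate 2 had a ratio of 0.889, at 6.29 against 6.02 to 6.05. Leaving out that library changed no call of IL1RAP or GSDMD at 2-fold. It moved the adjusted p of GSDMD in P15 against P7 (limma) from 0.077 to 0.033, and the IL1RN value rests on too few counts to be tested.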

How the results depend on the processing

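Of the 27 alternatives, dropping the fold threshold alters only counts of genes. The others gave 828 fold changes of the tested genes in 4 comparisons. IL1RAP in P7 against P3 was at 0.0 in the main fit and had no direction to keep. Its values ran from -0.0375 to 0.0158, and it was judged on adjusted p alone. With it, 822 of the 828 kept their side of the threshold on adjusted p. Where a direction existed it was kept, and 0 reversed. The 6 others were all GSDMD in P15 against P7, which passed at limma adjusted p = 0.014 to 0.048 under a shift to the same median, both replicate blocks, the fit of the 2 phases alone, and the fits without P0 replicate 2 (0.048) or without P3 replicate 2 (0.033). The number of genes called without a fold threshold was 8 for P3 against P0, 6 for P7 against P3, 7 for P15 against P7 and 8 for P15 against P0, in place of 0, 1, 4 and 5. Leaving out each library in turn gave 0, 1, 4 and 5 every time. Requiring 1 CPM in all 16 libraries gave 3 for P15 against P7 and 4 for P15 against P0, since CASP1 was then not tested. A pseudocount of 5 and quantile normalization each gave 4 for P15 against P0, where IL1R1 came under 2-fold. The fold change of CASP1 between P7 and P15 ran from -6.96 with a pseudocount of 0.1 to -2.82 with one of 5. Over all genes, a pseudocount of 5 called 290, 106, 2166 and 1976 genes in the 4 comparisons, in place of 592, 244, 3377 and 3129, a pseudocount of 0.1 called 939 and 445 in the first 2, and 1 CPM in all libraries called 380 and 139 there. Without a fold threshold the counts were 9100, 7713, 11452 and 11423. The replicate block left the members called at 0, 1, 4 and 5. Same-numbered libraries deviated together by correlations of -0.147 to 0.218, above 0.1 in 1 of 24 pairs, so the numbers were not taken to pair the libraries. Depth limits IL33, IL1RN and, in P15, CASP1, which rest on 0 to 28 counts a library.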

Other observations

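The genes whose levels over the 16 libraries ran most like those of the members by Pearson's r are given as a description, since the libraries fall into 4 phases and any genes with like phase means score high. For IL1B they were INHBB (r = 0.999), CXCL5 (0.998) and ANXA2 (0.996), and CXCL5, a chemokine gene, went from 6.17 in P0 and 7.39 in P3 to 4.56 in P7 and 0.06 in P15. For IL1A they were CCNJL, IFITM2 and PLEKHG3 (0.998 each), of which IFITM2, an interferon-induced antiviral gene, went from 6.85 in P0 to 1.01 in P15. For CASP1 they were LPXN, NMNAT2 and UBA7 (0.999 each), of which UBA7 encodes the activating enzyme for the ubiquitin-like protein ISG15. For IL1RAP they were BACE2 (0.996), DNER (0.995) and NRIP3 (0.991), for IL1R1 MRPL52, PPP2R2A (0.991 each) and SLC4A11 (0.990), and for NLRP1 RFX5 (0.994), PYGO2 (0.990) and RFX3 (0.989). The nearest genes of IL18 (RAN, 0.942) and GSDMD (ZFYVE19, 0.949) ran less alike.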
